A study of Homo sapiens with 4 samples.

Results

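S100 proteins are small calcium sensors whose genes were followed here in MOLM-13, a long-cultured line of human acute monocytic leukaemia cells. The 10 genes described (S100A4, S100A6, S100A8, S100A9, S100A10, S100A11, S100A12, S100A13, S100P and S100Z) were chosen by symbol, out of 26601 named genes or IDs present for every library, and all 10 were found. Both groups were MOLM-13 cells grown in serum-supplemented medium: the untreated controls received no doxycycline, and the induced cells received doxycycline for 4 days at a dose labelled 1 mg/ml, a unit that could not be checked and may be an error for micrograms, which switched on GADD45G (labelled GADD45g), a small nuclear protein that stress induces and that acts on the p38 and JNK kinase pathways. Each group held 2 RNA-seq libraries, described by the submitters as biological replicate experiments. The sources used here state neither the construct and its promoter nor whether the cells were 1 clone or a pool. With no group that took doxycycline alone, the agent and the expressed gene cannot be told apart in any difference below.

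Each S100 protein carries a pair of EF-hand calcium-binding loops and usually works as a dimer, opening on calcium to bind target proteins. Most of the genes lie side by side on the long arm of chromosome 1. S100A8 and S100A9 form calprotectin, which makes up a large part of the cytosolic protein of neutrophils and is plentiful in blood monocytes; S100A12, a further calgranulin, is found in the same cells. Released by activated phagocytes, the calgranulins act as danger signals on TLR4 and on AGER, the receptor for advanced glycation end products, and they withhold zinc and manganese from microbes.

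The regions before the starts of 5 members are shown first, because these are the 3 calgranulin genes, which rose together, and the 2 members that fell. Each run is the 250 bases before a start in RefSeq (GRCh38.p14), read 5′ to 3′ along the gene. The capitals mark TATAAA (the core letters of a TATA box), CTTCCTC (an ETS core read from the other strand), TGANTCA (AP-1) and TTNNGCAA (C/EBP), all searched on both strands; no 2 of the marked stretches overlap. S100A9 is at chr1:153357604-153357853, plus strand. S100A12 is at chr1:153375622-153375871, minus strand. S100A8 is at chr1:153391074-153391323, minus strand. S100A4 is at chr1:153545807-153546056, minus strand. S100P is at chr4:6693628-6693877, plus strand.
S100A9: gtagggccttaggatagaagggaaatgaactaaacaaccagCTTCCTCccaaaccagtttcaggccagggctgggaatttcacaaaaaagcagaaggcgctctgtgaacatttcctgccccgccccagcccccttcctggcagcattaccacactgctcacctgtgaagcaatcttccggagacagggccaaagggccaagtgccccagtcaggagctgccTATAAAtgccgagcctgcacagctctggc
S100A12: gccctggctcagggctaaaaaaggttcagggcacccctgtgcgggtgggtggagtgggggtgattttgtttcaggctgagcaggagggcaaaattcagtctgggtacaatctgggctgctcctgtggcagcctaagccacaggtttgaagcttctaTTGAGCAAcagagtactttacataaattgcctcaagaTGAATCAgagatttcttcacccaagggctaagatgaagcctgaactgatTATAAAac
S100A8: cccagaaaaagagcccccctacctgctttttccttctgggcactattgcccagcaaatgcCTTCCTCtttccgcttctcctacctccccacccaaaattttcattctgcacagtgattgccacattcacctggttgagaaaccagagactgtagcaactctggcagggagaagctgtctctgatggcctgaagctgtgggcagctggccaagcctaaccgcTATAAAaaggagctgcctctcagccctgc
S100A4: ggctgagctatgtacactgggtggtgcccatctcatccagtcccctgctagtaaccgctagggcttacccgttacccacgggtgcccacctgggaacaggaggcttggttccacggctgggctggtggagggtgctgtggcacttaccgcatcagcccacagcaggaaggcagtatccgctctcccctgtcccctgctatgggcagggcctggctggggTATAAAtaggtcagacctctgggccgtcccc
S100P: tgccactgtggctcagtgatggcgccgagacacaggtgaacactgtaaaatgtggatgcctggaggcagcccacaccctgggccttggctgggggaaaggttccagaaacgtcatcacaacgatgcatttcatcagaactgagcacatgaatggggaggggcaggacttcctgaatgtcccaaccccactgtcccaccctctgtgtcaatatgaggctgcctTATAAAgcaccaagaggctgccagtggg

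The runs of S100A9, S100A12, S100A4 and S100P, each from the only start listed, held TATAAA, which 10.8% of the 34943 RefSeq promoter windows of this length hold. It stood 29 to 24 bases before the start in S100A9, 31 to 26 in S100A4 and 28 to 23 in S100P, but 8 to 3 in S100A12, closer than a TATA box usually lies. These positions depend on the start used. The nearest main start in the GENCODE 29 annotation lies 28 bases from the one shown for S100A12. That distance is 0 for S100A9, 4 for S100A4, 97 for S100A8 and 809 for S100P. RefSeq lists 3 starts for S100A8; the one shown was picked because it has TATAAA close upstream, at 29 to 24 bases, and of the other two, 1 window holds it and 1 does not. Among the remaining members TATAAA was absent from the windows of S100A6, S100A10 and S100A11 and present for S100Z and for 1 of 3 starts of S100A13. The ETS core GAGGAAG or its complement, found in 11.3% of all windows, was in S100A9 and S100A8 and also in S100Z, which had no reads. S100A12 held a match to the AP-1 pattern, TGAATCA, 57 to 51 bases before its start. That pattern accepts any base at its centre, so this is a loose match. S100A12 also held a C/EBP match, TTGAGCAA, 94 to 87 bases before its start. The AP-1 and C/EBP patterns are in 6.59% and 9.06% of all windows, and S100A11 also held a C/EBP match. The loose NF-kB pattern was in 54.4% of all windows and is not marked, and the STAT pattern TTCNNNGAA, in 6.56% of windows, was found for S100Z alone among the windows of the 10 genes. These matches describe letters in a window and do not show binding.

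The libraries were checked against their labels by the induced gene and by marker genes. GADD45G stood at 10.5 and 0.289 RPKM (reads per kilobase of gene, scaled to library depth) in controls 1 and 2 and at 3236 and 2118 RPKM in induced libraries 1 and 2. Depths recovered from the values ran from 15683931 to 18895470 reads, so a single read in a 1 kb gene gave 0.0529 to 0.0638 RPKM. Of 18 listed myelomonocytic markers 12 were tested, of which 4 rose and 3 fell (limma), 58.3% in all against 38.9% of all tested genes. ITGAX, an integrin of monocytes and dendritic cells, rose (log2 change 2.84) and CSF3R, the G-CSF receptor, fell (-2.30), while CD33 (12.5 to 21.5 RPKM), PTPRC (23.9 to 36.1) and SPI1 (68.7 to 101) were not called. CD14, the monocyte marker, was low, at 0.565 and 0.541 RPKM in the controls and 1.37 and 1.49 RPKM after induction. KIT, CD34, CD68 and MPO were under 0.3 RPKM in each, and FLT3, mutated in this line, was at 0.958 and 1.19 RPKM in the controls and at 0.0889 and 0.0451 RPKM after induction. Epithelial markers set the libraries numbered 1 apart: the 12 listed markers summed to 44.1 RPKM in control 1 and 43.3 RPKM in induced 1, against 1.02 and 0.707 RPKM in control 2 and induced 2. The listed fibroblast, lymphoid and erythroid markers each summed, list by list, to at most 7.03, 4.94 and 0.558 RPKM in any library.

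Of the 10 S100 genes, 9 passed the filter of a mean of 1 RPKM over the libraries, S100A12 only through its induced values, and S100Z was listed at 0 in all 4. Among all 10771 genes tested with limma, 38.9% were called at an adjusted p under 0.05 (12.2% higher and 26.7% lower after induction), and the median log2 change was -0.21. S100A8, S100A9, S100A12 and S100A10 rose, S100A4 and S100P fell, and S100A6, S100A11 and S100A13 were not called. Both induced values lay above both controls for 4 of the 9 (24.1% of all tested genes) and below both for 2 (45.8%); the total of 6 is near the background of 70%. Changes are given on the log2(RPKM + 1) scale with their SE, and group levels as mean ± SD with n = 2. After rescaling by a trimmed mean of M values the background shifted to 17.8% higher and 19% lower, and the same 6 genes were called in the same directions. In bulk RNA, fewer cells that express a gene and less RNA of it per cell cannot be told apart.

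**Figure D1:**
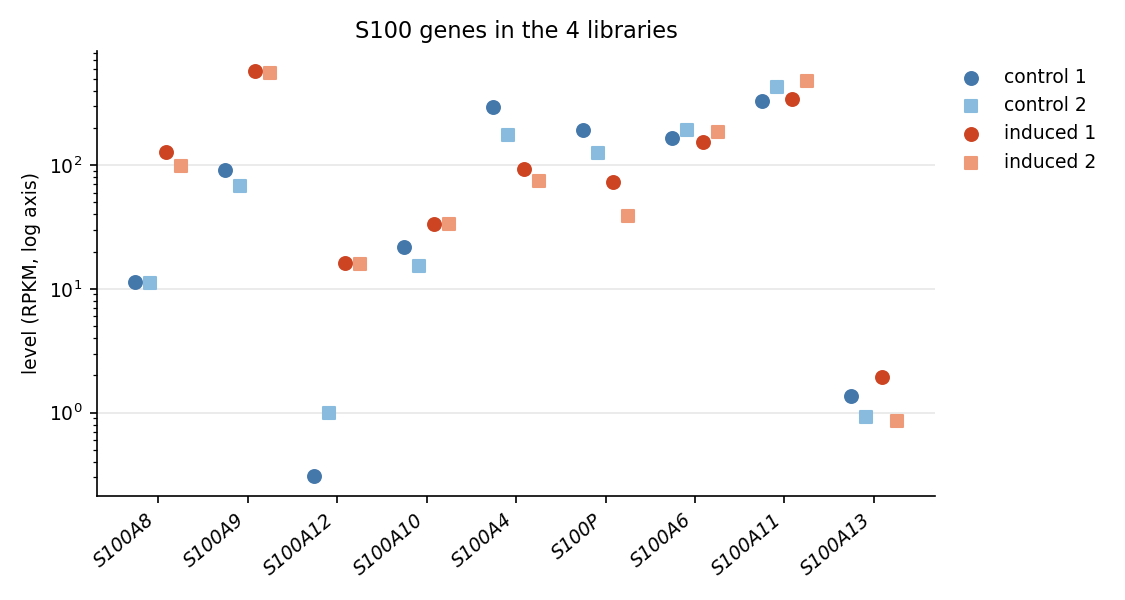
RPKM of the 9 S100 genes with reads, on a log axis, in each of the 4 libraries (circles: libraries numbered 1; squares: libraries numbered 2; blue: controls; red: induced). The induced points of S100A8, S100A9, S100A12 and S100A10 lie above both controls, those of S100A4 and S100P below both, and the groups overlap for S100A6, S100A11 and S100A13.

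S100A9, the larger calprotectin subunit, stood at 91.4 and 68.2 RPKM in controls 1 and 2 and at 575 and 554 RPKM in induced libraries 1 and 2. Both induced values lay well above both controls, and the induced libraries differed little from each other. The mean went from 79.8 ± 16.4 to 565 ± 15.4 RPKM, a 7.08-fold rise (log2 change 2.82 ± 0.26; limma adjusted p = 2.99e-05). It moved from the 364th to the 42nd highest mean level among the tested genes.

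S100A8, the partner subunit of calprotectin, was at 11.4 and 11.1 RPKM in the controls and at 126 and 99.0 RPKM after induction. The control values, from 215 and 175 reads, were nearly equal, and both induced values were far above them. The rise was 10.0-fold, from 11.2 ± 0.20 to 113 ± 19.4 RPKM (log2 change 3.21 ± 0.24; limma adjusted p = 6.92e-06). S100A9 transcripts outnumbered those of S100A8 per unit length in every library, by 8.03 and 6.15 times in the controls and by 4.55 and 5.59 times after induction.

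S100A12, the calgranulin that was named for its binding to AGER, was close to the detection limit in the controls, at 0.310 RPKM from 3 reads and 0.989 RPKM from 8 reads. Their 95% counting intervals were 0.0638 to 0.905 and 0.427 to 1.95 RPKM. The induced libraries held 157 and 130 reads, or 16.1 and 15.8 RPKM. The induced values agreed within counting error and lay above the controls' intervals. Summed over libraries and scaled to depth, the reads were 25.8-fold higher after induction (95% counting interval 14.2 to 52.2). The log2 change was 3.39, or 4.59 with a pseudocount of 0.1 and 1.89 with a pseudocount of 5. Because the gene passed the filter only through its induced values, its test is given from the fit with no filter (limma adjusted p = 0.0179). Even after induction S100A12 stayed below S100A8, which was 7.85 and 6.27 times higher per unit length.

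S100A8 and S100A9 were among the larger increases in the data. Of all tested genes, 99.2% had a lower log2 change than S100A9 and 99.5% a lower one than S100A8. S100A12 is not ranked here, because it passed the filter only through its induced values. S100A8 and S100A9 were called under all 15 alternative settings tried. In the libraries numbered 2, where the epithelial markers were at or near 0, S100A8 was 8.92-fold and S100A9 8.12-fold higher in the induced library, against 11.1-fold and 6.30-fold in the libraries numbered 1. For S100A12 the fold was 15.96 in the libraries numbered 2 and 52.0 in those numbered 1, where the control had 3 reads.

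**Figure D2:**
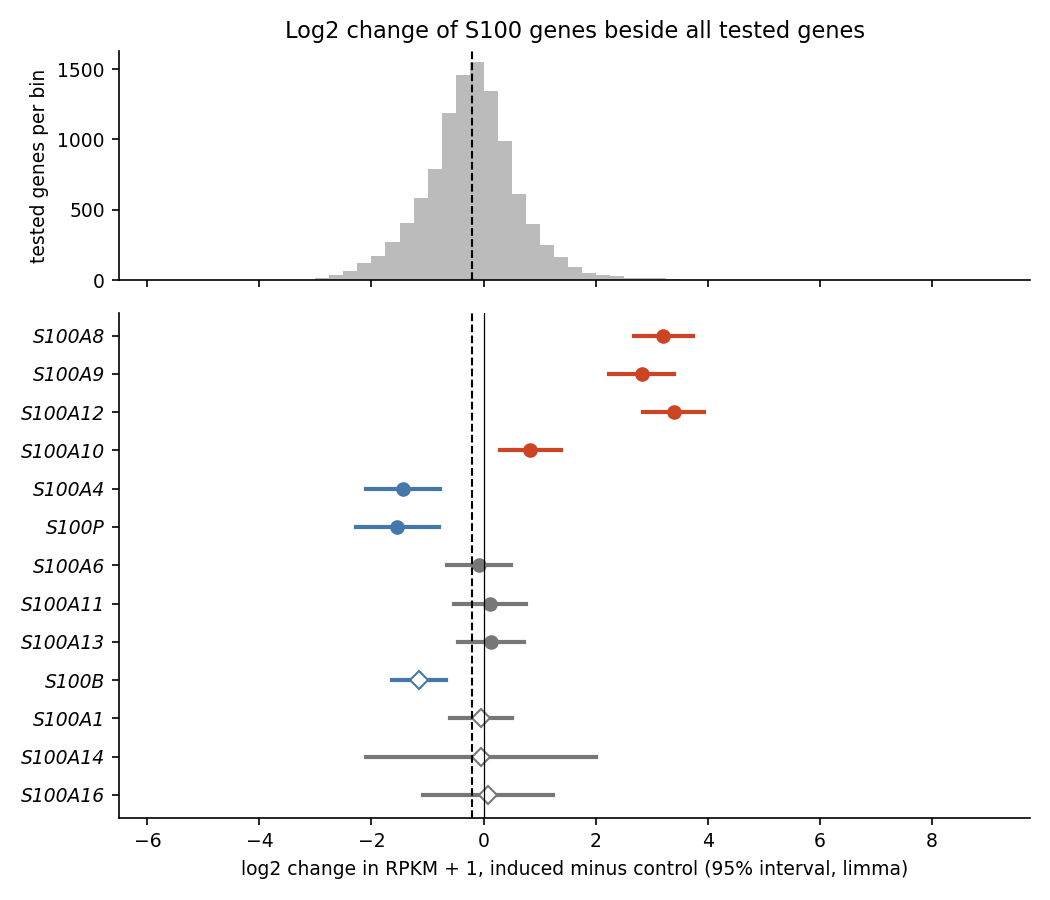
Upper panel: number of tested genes by log2 change, in bins of 0.25, with the median of -0.21 as a dashed line. Lower panel: log2 change with 95% interval for the 9 tested S100 genes (filled circles) and 4 further S100 genes (open diamonds; red: higher, blue: lower, grey: not called); the intervals of the 3 calgranulins lie between 2.24 and 3.93.

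S100A10 encodes p11, a member that no longer binds calcium and that joins annexin A2 at the plasma membrane, where the complex captures plasminogen. It was at 21.6 and 15.3 RPKM in the controls and at 33.2 and 33.4 RPKM after induction. The induced values were alike and above both controls, which were further apart. The mean rose 1.80-fold, from 18.5 ± 4.46 to 33.3 ± 0.14 RPKM (log2 change 0.84 ± 0.24; limma adjusted p = 0.0199). The call was lost without control 2 (adjusted p = 0.0996), without induced 1 (0.0713), without induced 2 (0.0762) and with no filter on low values (0.0799). Within the libraries numbered 1 and 2 the log2 differences were 0.60 and 1.07. ANXA2, the partner gene, was at 26.8 and 28.9 RPKM in the controls and at 40.2 and 43.9 RPKM after induction, and it did not pass (log2 change 0.58 ± 0.23; limma adjusted p = 0.0678), though it passed under each of the 4 rescalings (adjusted p = 0.0152 to 0.0299). The ratio of ANXA2 to S100A10 was 1.24 and 1.88 in the controls and 1.21 and 1.32 after induction.

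S100A4 encodes metastasin, which binds the heavy chain of non-muscle myosin and loosens its filaments in migrating cells. It was at 292 and 175 RPKM in the controls and at 92.6 and 74.0 RPKM after induction. Both induced values were below both controls, although the controls were far apart. The mean was 2.81-fold lower after induction, 83.3 ± 13.2 against 234 ± 82.5 RPKM (log2 change -1.44 ± 0.30; limma adjusted p = 0.00323). The call was lost when genes of all levels were tested (adjusted p = 0.0672). S100A4 was higher in the libraries numbered 1, which hold the epithelial transcripts, than in those numbered 2 by 1.67 times among the controls and by 1.25 times after induction. In the libraries numbered 2 alone, where KRT8 had 0 and 3 reads, S100A4 was 2.37-fold lower after induction. MYH9, the gene of its myosin partner, rose from 71.7 and 129 RPKM to 181 and 182 RPKM (log2 change 0.91 ± 0.30; limma adjusted p = 0.0341). That call was lost without control 1 (log2 change 0.50; adjusted p = 0.211) or either induced library, and with no filter.

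S100P, first found in placenta and known for binding ezrin and AGER, is one of the few members outside chromosome 1. It was at 193 and 126 RPKM in the controls and at 72.8 and 38.4 RPKM after induction. The groups did not overlap, and within each group the library numbered 1 was higher, by 1.53 and 1.90 times. The mean was 2.87-fold lower after induction, 55.6 ± 24.3 against 159 ± 47.5 RPKM (log2 change -1.54 ± 0.34; limma adjusted p = 0.00425). Without control 1 the log2 change was -1.23 and the call was lost (adjusted p = 0.0682), as it was with no filter on low values (0.0934). In the libraries numbered 2 the level was 3.28-fold lower in the induced one, and in the libraries numbered 1 it was 2.65-fold lower. S100PBP, which encodes an S100P-binding nuclear protein, was not called (log2 change -0.37; limma adjusted p = 0.189).

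S100A11 and S100A6 were abundant in all 4 libraries. S100A11, calgizzarin, which binds annexins and takes part in plasma membrane repair, was at 329 and 430 RPKM in the controls and at 344 and 480 RPKM after induction. The groups overlapped and the library numbered 2 was the higher of each group. The log2 change was 0.11, with a 95% interval of -0.53 to 0.75 (limma adjusted p = 0.789). S100A6, calcyclin, was at 167 and 191 RPKM in the controls and at 153 and 185 RPKM after induction, again overlapping. Its log2 change was -0.08, with a 95% interval of -0.65 to 0.48 (limma adjusted p = 0.821), and its sign turned after each of the 4 rescalings (0.085 to 0.17). Neither interval reaches the changes measured for the calgranulins, S100A4 or S100P, but neither shows that the levels were equal. CACYBP, the calcyclin-binding protein gene, fell from 32.4 and 22.0 RPKM to 17.1 and 14.9 RPKM (log2 change -0.71 ± 0.25; limma adjusted p = 0.0458), a call that was lost under each of the 4 rescalings (adjusted p = 0.106 to 0.177), with no filter, and without control 1 or either induced library.

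S100A13, which helps export FGF1 and interleukin-1 alpha from cells without a signal peptide, was at 1.37 and 0.922 RPKM in the controls and at 1.94 and 0.857 RPKM after induction. The values came from 66, 37, 94 and 35 reads, and the libraries numbered 1 were higher in both groups. The log2 change was 0.13, with a 95% interval of -0.46 to 0.72 (limma adjusted p = 0.732). Exons of S100A13 overlap those of S100A1 on the opposite strand over 235 bases in GENCODE 29, 10.6% of its exon length, and without strand information reads there cannot be assigned to 1 gene. Another overlap, of 536 bases or 24.2% of its exon length, is with AL162258.1 on the same strand, which strand information would not resolve. Whether these stretches share bases was not counted. Of its cargo genes, IL1A rose from 0.251 and 0.180 RPKM to 34.6 and 41.0 RPKM. It too passed the filter only through its induced values, so its test is from the fit with no filter (log2 change 4.99; limma adjusted p = 0.0136). FGF1 stayed under 0.03 RPKM in every library.

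The make-up of the S100 transcripts differed between the groups. Summed over the 10 genes, the level was 1107 and 1019 RPKM in the controls and 1416 and 1480 RPKM after induction. The 3 calgranulins made up 9.31% and 7.88% of that sum in the controls and 50.7% and 45.2% after induction. S100A4 and S100P together went the other way, from 43.8% and 29.6% to 11.7% and 7.59%. S100A11 was the highest member in both controls, and S100A9 was the highest in both induced libraries, followed by S100A11, S100A6 and S100A8. S100A4 was above S100P in all 4 libraries, while S100A6 was below both in control 1 and above both in control 2, so its place there does not hold beyond the spread of the libraries. These shares follow from the levels above and are not separate tests.

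**Figure D3:**
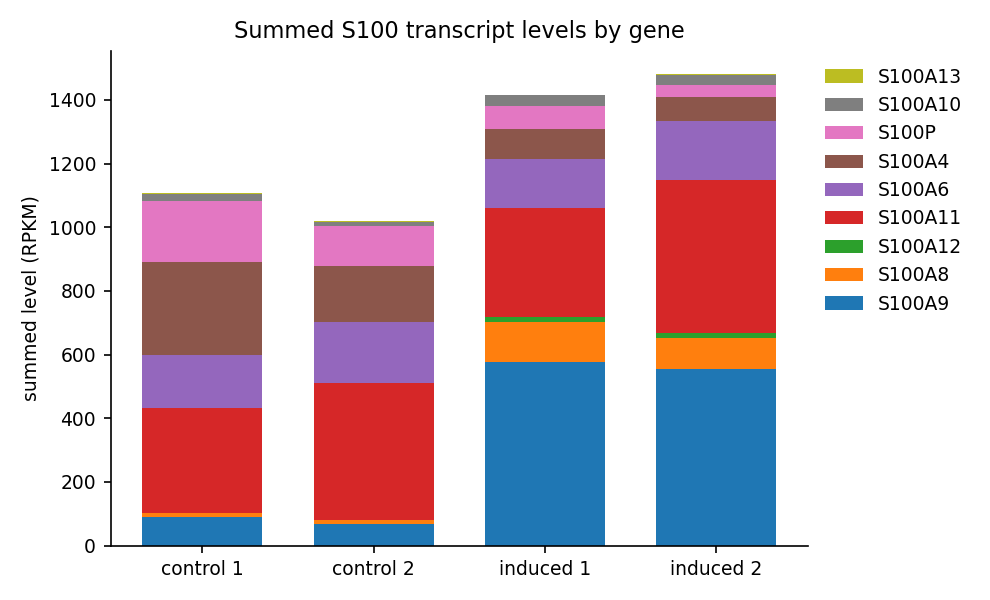
Stacked bars from 0 of the RPKM of 9 S100 genes in each library. The calgranulins S100A9, S100A8 and S100A12, at the bottom of the bars, reach 103 and 80.3 RPKM in the controls and 718 and 668 RPKM after induction.

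The gene order on chromosome 1, taken from RefSeq, placed S100A9, S100A12 and S100A8 directly next to one another, with no other protein-coding gene between them. S100A6 and S100A4, with S100A5 between them, stand further along the cluster, and of these S100A4 fell while S100A6 was not called. S100A10 and S100A11 are neighbours at the other end, and of these S100A10 alone was called. From S100A10 to S100A1 with 2 genes on each side, RefSeq lists 51 protein-coding genes that are not S100 genes. Of these, 3 passed the filter, and limma called neither THEM4 (log2 change 0.25; adjusted p = 0.415) nor CHTOP (-0.28; 0.343) nor SNAPIN (adjusted p = 0.717). PGLYRP4, next to S100A9, was at 0 in both controls and at 0.256 and 0.165 RPKM after induction. Among the wider list of 32 genes around the cluster, 14 were tested, of which RAB13 (log2 change 1.41) and CRTC2 (0.93) rose and CREB3L4 (-0.74) fell, with a median of 0.02. In all 21.4% of these were called, against 38.9% of all tested genes. The call of CREB3L4 was lost under each rescaling and without any 1 library, and that of CRTC2 without control 1 or induced 2; both were lost with no filter.

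**Figure D4:**
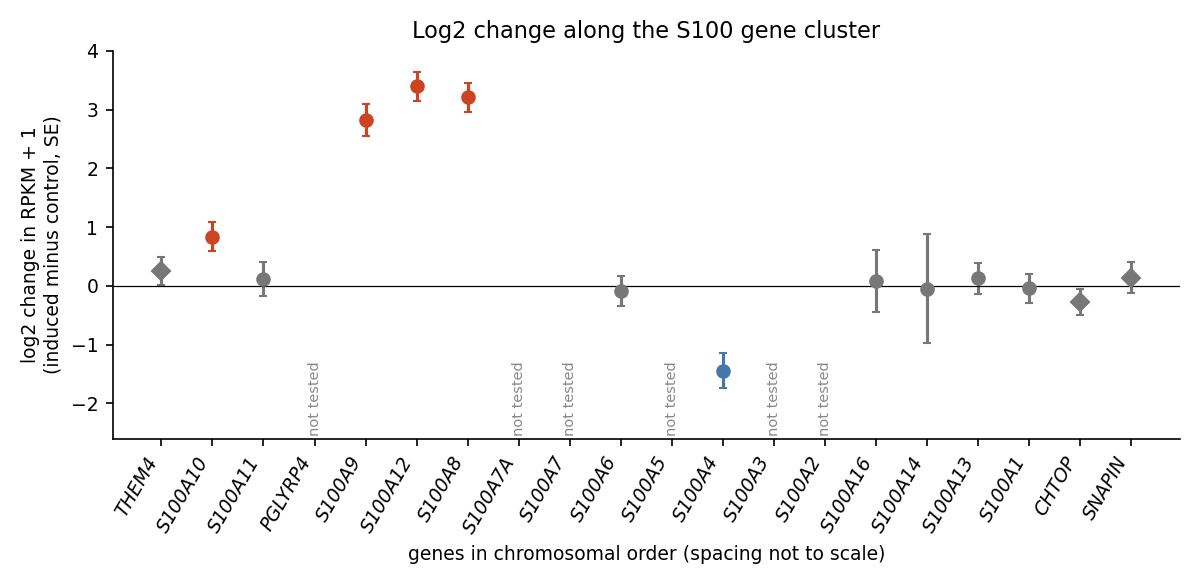
Log2 change with SE in chromosomal order for the S100 genes (circles) and 4 neighbours (diamonds), with genes under the filter written as not tested (red: higher, blue: lower, grey: not called). The 3 adjacent calgranulins stand at 2.82 to 3.39, S100A4 at -1.44, and the genes at the far right near 0.

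Of the 11 S100 genes outside the set of 10, 4 were tested and 1 was called. S100B, best known from glia and melanocytes, fell from control values of 3.82 and 3.21 RPKM to 1.10 and 0.951 RPKM after induction (log2 change -1.16 ± 0.22; limma adjusted p = 0.00184), with no overlap. The size of that change depends on the pseudocount, from -1.69 with 0.1 to -0.50 with 5. S100A14 and S100A16 tracked the epithelial markers rather than the treatment groups. S100A14 was at 7.46 and 6.92 RPKM in control 1 and induced 1 and had 1 read in each of control 2 and induced 2. S100A16 was at 1.91 and 2.15 RPKM in the libraries numbered 1 and had 0 reads and 1 read in those numbered 2. KRT8, a keratin of simple epithelia, had the same layout, with 13.2 and 13.9 RPKM against 0 and 0.0375 RPKM, and EPCAM was at 5.75 and 5.82 RPKM against 0 and 0. Whether epithelial transcripts add to the levels of the 10 S100 genes in the libraries numbered 1 was not tested, beyond the values of the libraries numbered 2 given beside the results.

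**Figure D5:**
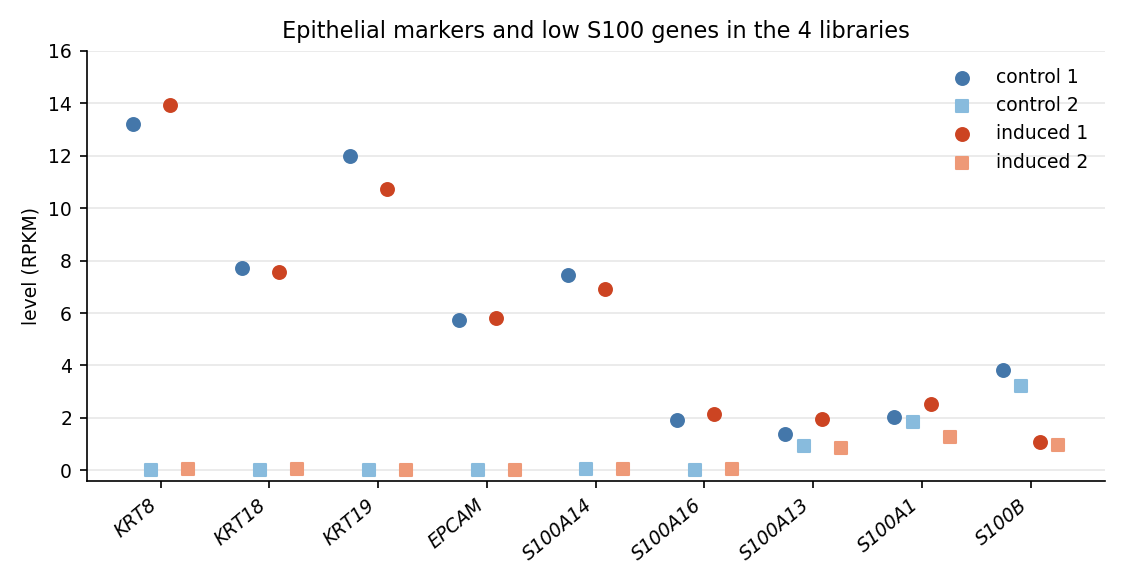
RPKM on a linear axis of 4 epithelial markers and 5 low S100 genes in the 4 libraries (circles: libraries numbered 1; squares: numbered 2; blue: controls; red: induced). S100A14 and S100A16 are high only where KRT8, KRT18, KRT19 and EPCAM are, whereas S100B separates by treatment.

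The other S100 genes were low. S100A3 had 2 and 1 reads in the controls and 13 and 10 reads after induction, and it was below the filter for testing. Summed over libraries, its ratio per depth was 7.58. The 95% counting interval of 2.29 to 39.4 leaves out the spread between libraries. S100A2 was at 0.680 and 0.407 RPKM in the controls and at 2.03 and 0.839 RPKM after induction. S100A5, S100A7 and S100G had 16 reads or fewer in every library, and S100A7A and S100A7L2 were listed at 0. S100A1, at 2.02 and 1.83 RPKM in the controls and 2.53 and 1.28 RPKM after induction, overlapped between groups (log2 change -0.04; limma adjusted p = 0.911).

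Of 7 tested genes of receptors through which S100 proteins signal, 2 rose and the other 5 were not called (limma), with a median log2 change of 0.15; 28.6% were called, against 38.9% of all tested genes. LY96, which encodes the MD-2 subunit that TLR4 needs to bind its ligands, rose from 5.70 and 2.52 to 13.9 and 16.4 RPKM (log2 change 1.73 ± 0.29; limma adjusted p = 0.00104), a call lost with no filter (0.0577). SDC4, a heparan sulphate proteoglycan, rose from 14.8 and 12.1 to 49.3 and 38.5 RPKM (adjusted p = 0.000439). TLR4 itself was at 12.8 and 10.9 RPKM in the controls and 7.87 and 9.85 RPKM after induction and did not pass (log2 change -0.39; adjusted p = 0.205), and AGER, at 2.03 and 4.94 against 3.24 and 4.22 RPKM, overlapped between the groups (adjusted p = 0.730).

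Among 20 tested genes of S100 binding partners 7 rose and 4 fell, 55% in all against 38.9% of all tested genes, with a median log2 change of 0.14. ANXA1, an annexin bound by S100A11, rose from 8.58 and 6.95 to 62.7 and 60.8 RPKM (log2 change 2.85 ± 0.23; limma adjusted p = 1.19e-05). CYBB, the membrane catalytic subunit of the phagocyte NADPH oxidase, to which calprotectin delivers arachidonic acid, fell from 39.9 and 33.0 to 5.04 and 5.88 RPKM (log2 change -2.53 ± 0.23; limma adjusted p = 2.31e-05).

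Of 13 tested transcription factor genes linked to calgranulin transcription 8 rose and the other 5 were not called (limma), with a median log2 change of 0.86 beside -0.21 over all tested genes. Of all tested genes 12.2% rose, or 17.8% after trimmed mean scaling. The list was chosen with earlier results of these data known, and much of it is AP-1 family genes (JUN, JUNB, FOS, FOSL1, FOSL2 and ATF3). The counts therefore describe the listed genes and are not a test of the list. CEBPB, a factor of monocyte and macrophage genes, rose from 42.8 and 57.3 to 204 and 175 RPKM (log2 change 1.91 ± 0.26; limma adjusted p = 0.000258). The AP-1 family genes FOSL2 and JUNB rose by 1.96 and 1.28 on the log2 scale, JUN by 4.14 and ATF3 by 3.39. The call of JUNB was lost without control 1 (adjusted p = 0.0522) and with no filter (0.0633). SPI1, which encodes the ETS factor PU.1, was not called (log2 change 0.36; adjusted p = 0.269), and neither were CEBPE, FOS and KLF4. STAT3 missed the threshold (log2 change 0.55; adjusted p = 0.0696) and passed it under each of the 4 rescalings. CEBPD stayed under 0.1 RPKM. CEBPA, also on the list, was not among the IDs listed in all 4 files and was not tested. What these factors do at the S100 genes was not measured.

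The genes whose 4 centred log2 values lay nearest to those of S100A8 were OLIG1 (Euclidean distance 0.15), SLC7A7 (0.18), ZFP36L1 (0.21), ATF3 (0.24) and FCRLA (0.26). Those nearest to S100A4 were SRSF1 (0.08), UMPS (0.09), TOMM22 (0.10), SNHG29 (0.12) and TMEM126A (0.13). FCRLA, at 0.0163 and 0 RPKM in the controls and 7.45 and 6.92 RPKM after induction, passed the filter only through its induced values. The measure rests on 4 libraries in 2 groups.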

How the data were processed

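RNA-seq of 2 untreated and 2 induced MOLM-13 libraries was used. Per the file headers, the authors deposited RPKM values for Ensembl IDs. TopHat, Cuffnorm and Cuffdiff, and the build hg19, appear in the submitters' processing notes, without versions or roles. The sources used here state neither strand nor read length. Replicate numbers follow the titles: those numbered 2 carry a suffix. The members and lists were chosen with earlier results of these data known.

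The values of induced library 1 used here stop mid-row after 27332 of 57820 IDs; only IDs listed in all 4 files were used. Symbols came from a table of gene names (51996 IDs paired), and rows of 1 symbol were summed. In each library 100.0% of low values (up to 20 reads, IDs of the same version in GENCODE 29) were whole reads within 0.01, which gave the depths; gene lengths were solved from the values, nearest to GENCODE 29. Exact Poisson intervals of 95% cover counting error only. The ratios of summed reads for S100A12 and S100A3 carry exact binomial intervals of 95%, with the libraries of a group pooled. These also leave out the spread between libraries.

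Genes whose mean reached 1 RPKM were tested on log2(RPKM + 1) with limma 3.58.1 (R 4.3.3; eBayes with trend, two-sided, Benjamini-Hochberg adjustment over 10771 genes, threshold 0.05; prior degrees of freedom 8.72, residual 2). The code was tested on simulated data. Alternatives were rescaling (unweighted trimmed mean of M values, upper quartile, quantile, median shift; the 4 rescalings), pseudocounts of 0.1 or 5, a filter at 5 RPKM or none, other priors, a replicate block and each library left out. Named genes are all S100 genes, the tested genes of each list that had the lowest adjusted p (up to 4), further list genes chosen after their values were seen, and the 5 nearest patterns to S100A8 and S100A4. Promoters are RefSeq windows of GRCh38.p14, found for all 10 genes; the planned protein sequences were not used here. Gene order came from RefSeq GRCh38.p14. Figures used matplotlib 3.10.9. Some named genes are not reported here.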

Additional observations from a re-analysis of the deposited data

How the results depend on the processing

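S100A8, S100A9 and S100A12 kept their direction and call in every alternative tried (S100A12 enters those with a filter through its induced values), and S100B in each in which it passed the filter. With no filter on low values, which tests 20689 genes, limma called 3 of the 6 S100 genes, all higher, and 0 lower (S100A4, S100P and S100A10 were lost, with unadjusted p of 0.0102, 0.0180 and 0.0138), and over all genes 2462 were called, 823 higher and 1639 lower. Leaving out 1 library gave 5 of the 9 called each time, with 3 to 4 higher and 1 to 2 lower; over all genes it gave 2770 to 3606 calls, 826 to 1165 higher and 1907 to 2441 lower, against 4185, 1314 and 2871 with all libraries. A library left alone in its group is assumed to vary like the other group. The log2 change of S100A6 reversed under all 4 rescalings, to 0.17 (trimmed mean), 0.093 (upper quartile), 0.085 (quantile) and 0.13 (median shift), that of S100A11 under the quantile one (-0.048), and that of S100A1 under the 4 in that order (0.12, 0.071, 0.20 and 0.17). S100A14 reversed likewise (0.064, 0.033, 0.024 and 0.16). With 1 library left out, the log2 changes ranged from -0.22 to 0.051 for S100A6, -0.13 to 0.35 for S100A11, -0.20 to 0.46 for S100A13, -0.36 to 0.27 for S100A1, -1.55 to 1.46 for S100A14 and -0.69 to 0.88 for S100A16 (without control 2 or induced 2 only, since it fell below the filter without the others), and from -0.34 to 0.64 for AGER. The cause of these reversals was not tested, and each of these genes was uncalled in all of these settings. With a replicate block on the library number, all 6 calls held and 4987 genes were called; that fit has 1 residual degree of freedom and an infinite prior, so its p-values are not given. The deviations of same-numbered libraries from their group means correlated across genes with r = 0.35, but the labels do not say that a number marks a shared culture or day. Depth limits S100A12 in the controls and the S100 genes below the filter.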

Other observations

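Among 22 tested genes of other calcium-binding proteins with EF-hands, 2 rose and 7 fell (limma), with a median log2 change of -0.27 beside -0.21 over all tested genes; 40.9% were called, near the 38.9% of all tested genes. CALM2, a calmodulin gene, fell from 68.9 and 41.0 to 27.5 and 22.8 RPKM (log2 change -1.06 ± 0.28; limma adjusted p = 0.0128). NUCB2, a nucleobindin, fell by 1.89 on the log2 scale (limma adjusted p = 0.000168), and NUCB1 rose from 50.5 and 62.8 to 114 and 91.5 RPKM (adjusted p = 0.0220). With no filter the calls of CALM2 and NUCB1 were lost; both were also lost without control 1, that of CALM2 without induced 2 and that of NUCB1 without induced 1.

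Of 7 tested genes of other secreted or granule proteins of neutrophils and monocytes, 2 rose and 4 fell (limma), where 12.2% of all tested genes rose and 26.7% fell. LYZ, lysozyme, fell from 1173 and 868 to 268 and 242 RPKM (log2 change -1.98 ± 0.28; limma adjusted p = 0.000326), RETN, resistin, from 47.0 and 40.6 to 10.6 and 6.34 RPKM, and FCN1, ficolin-1 of monocytes, from 7.04 and 10.2 to 2.30 and 2.05 RPKM. MMP9 rose by 1.13 on the log2 scale (limma adjusted p = 0.00348), a call lost with no filter (0.0633).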
